A study of Mus musculus with 8 samples.

Results

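The transcription factors that set B cell fate were followed in splenic B cells targeted for deletion of Eif4a1, the gene for the RNA helicase of the cap-binding translation initiation complex. The 10 genes were taken from the tables by their symbols, Pax5, Ebf1, Bach2, Bcl6, Spib, Pou2af1, Irf8, Irf4, Prdm1 and Xbp1, out of 53242 genes, and all 10 were among the 14218 genes with enough reads to be tested. B cells came from the spleens of C57BL/6 mice aged 8 to 12 weeks, 4 controls of genotype Eif4a1 +/+ Cd23-cre and 4 animals of genotype Eif4a1 fl/fl Cd23-cre (4A1 KO), so both groups carried the Cre, which is driven by the promoter of the gene for the B cell surface receptor CD23. Culture lasted 24 h, on irradiated CD40LB cells and in 40 ng/ml IL4. CD40LB is a fibroblast feeder line that displays CD40 ligand and BAFF and that was removed before RNA was isolated. Replicates 1 and 2 of each genotype were a male and a female of batch A, and replicates 3 and 4 were a male and a female of batch B. The study set aside replicate 1 of both genotypes for low viability, so the tests below compare replicates 2 to 4 and all 8 libraries are shown beside them.

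B cell identity is held by PAX5 and EBF1 together with the ETS factor SPIB and the octamer co-activator encoded by Pou2af1 (OBF-1). After activation, a B cell can enter the germinal centre, where BCL6, BACH2 and IRF8 restrain terminal differentiation, or become an antibody-secreting plasma cell under IRF4, BLIMP-1 (encoded by Prdm1) and XBP1. Some members of the first and second programme repress some of the third and the reverse. Naive, germinal centre and plasma cells thus differ in the balance of these factors.

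Sequences are shown for the 4 genes whose levels differed most between genotypes. The Xbp1 sequence is a known site of regulation, and the other 3 are promoter windows that matched a short pattern. XBP1 is made in its active form when the endonuclease IRE1 cuts a short stretch out of its coding exons in the cytoplasm, and this is the only sequence that separates both forms of the mRNA. In GRCm39 it spans 26 bases, chr11:5474279-5474304 on the plus strand, and is present in 11 of 15 annotated coding transcripts of Xbp1 (the removed bases are in capitals, with a few on either side).
Xbp1: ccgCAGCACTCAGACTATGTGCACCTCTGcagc
The gene-level counts do not separate the spliced from the unspliced form, so the Xbp1 values below are for both together. For the promoters, RefSeq's table of start sites (built on GRCm38.p6) gave 13 starts for the 10 genes, each of which was found at a single place in GRCm39. The 250 bases before a start, together with the 50 after it, were searched on both strands for 4 patterns. These were TGACGTG (the core that ATF6 and XBP1 bind), TTCCTNGAA (the BCL6 site), TGANTCA and ATGCAAAT (the octamer). TGANTCA is a loose form of the site shared by AP-1 and BACH factors, which has C or G at its centre. The 3 windows that held a match are shown, and the capitals mark the match.
Pou2af1: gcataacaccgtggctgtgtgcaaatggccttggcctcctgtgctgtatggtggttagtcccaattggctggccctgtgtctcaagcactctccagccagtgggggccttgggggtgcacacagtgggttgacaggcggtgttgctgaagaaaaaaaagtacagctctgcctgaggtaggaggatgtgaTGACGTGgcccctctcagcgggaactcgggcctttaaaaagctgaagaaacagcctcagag
Bcl6: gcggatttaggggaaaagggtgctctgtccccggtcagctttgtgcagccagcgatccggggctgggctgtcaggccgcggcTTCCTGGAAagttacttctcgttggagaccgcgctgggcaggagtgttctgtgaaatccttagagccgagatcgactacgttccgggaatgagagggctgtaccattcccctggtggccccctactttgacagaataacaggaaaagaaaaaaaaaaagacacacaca
Prdm1: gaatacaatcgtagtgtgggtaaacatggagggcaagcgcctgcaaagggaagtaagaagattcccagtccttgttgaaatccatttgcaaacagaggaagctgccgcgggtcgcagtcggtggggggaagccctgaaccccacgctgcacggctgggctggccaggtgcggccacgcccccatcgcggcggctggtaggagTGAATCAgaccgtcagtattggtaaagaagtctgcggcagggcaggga
The Pou2af1 window (chr9:51124740-51124989, plus strand) held TGACGTG at -61 from the start, a match that 2.01% of the 32851 mouse promoters in the table also had. OBF-1 is a known direct target of XBP1. The Bcl6 window (chr16:23800034-23800283, minus strand) belongs to the inner of its 2 starts and lies in an intron of the annotated gene. It held TTCCTGGAA at -168, as 1.59% of all promoters held the BCL6 site, and BCL6 is known to repress its own gene. The Prdm1 window (chr10:44334745-44334994, minus strand) lies within the annotated gene, with 36 of its 250 bases in exons. It held TGAATCA at -48, a match to the loose pattern TGANTCA, which 7.81% of all promoters held. The central base of this match is A, so it is not the stricter site with C or G. BACH2 is known to repress Prdm1. The octamer was found in 0 of the 13 windows and in 1.74% of all promoters. These are matches of letters, and binding was not measured.

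Eif4a1 itself stood at 826, 748, 939 and 880 CPM (read counts scaled to library size by the TMM method) in control libraries 1 to 4 and at 597, 556, 640 and 689 CPM in 4A1 KO libraries 1 to 4. The genotypes did not overlap, and in replicates 2 to 4 the log2 fold change of 4A1 KO over control was -0.44 ± 0.05 (SE; edgeR quasi-likelihood test, Benjamini-Hochberg adjusted p = 0.000115). The floxed allele removes exons 2 to 4 and the counts cover the whole mRNA, so this is not a measure of the intact transcript. Between 31727557 and 43210858 reads were counted per library. B cell markers summed to between 2130 and 2450 TPM (transcript abundance scaled to transcript length and library) in control and between 1580 and 1830 TPM in 4A1 KO libraries, with 3 of the 6 markers, Cd79a, Cd79b and Cd22, lower in 4A1 KO. Markers of T and NK cells summed to at most 0.183 TPM in any library. Myeloid markers summed to 5.32, 3.79, 4.53 and 2.76 TPM in control libraries 1 to 4 and to 4.02, 5.55, 4.98 and 6.35 TPM in 4A1 KO libraries 1 to 4, so that replicates 2 to 4 did not overlap, and 1 of the 3 tested (Adgre1, named after its values were seen) was called higher. Feeder fibroblast markers summed to between 2.55 and 13.4 TPM in control and between 3.41 and 8.25 TPM in 4A1 KO, with 1 of 4 tested (Col3a1, likewise) called lower. With all 8 libraries 0 of the 3 myeloid and 0 of the 4 feeder markers tested were called. Plasmacytoid dendritic markers reached 2.55 and 2.56 TPM. The part of these cells in the values below was not tested.

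Of the 10 fate factors, 4 changed between genotypes. Pou2af1, Xbp1 and Prdm1 were lower in 4A1 KO cells and Bcl6 was higher, whereas the other 6 differed by less than the fold limit. Calls needed a log2 fold change beyond 0.5 in either direction together with an edgeR adjusted p below 0.05, a rule that 25.3% of all genes tested passed, 11.6% as higher and 13.7% as lower in 4A1 KO. The share of fate factors called was 40.0%, from only 10 genes, and their median absolute log2 fold change of 0.31 was the same as that over all genes (0.31). At an adjusted p under 0.05 with any fold, 6 of the 10 passed beside 53.0% of all genes. Without the replicate block Pax5 and Prdm1 did not pass (edgeR adjusted p = 0.0649 and 0.183). The CPM of both genotypes did not overlap over the 8 libraries for 4 of the 10, Ebf1, Bcl6, Pou2af1 and Xbp1, beside 36.9% of all genes. In bulk RNA, fewer cells of a type and less RNA per cell cannot be told apart.

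**Figure D1:**
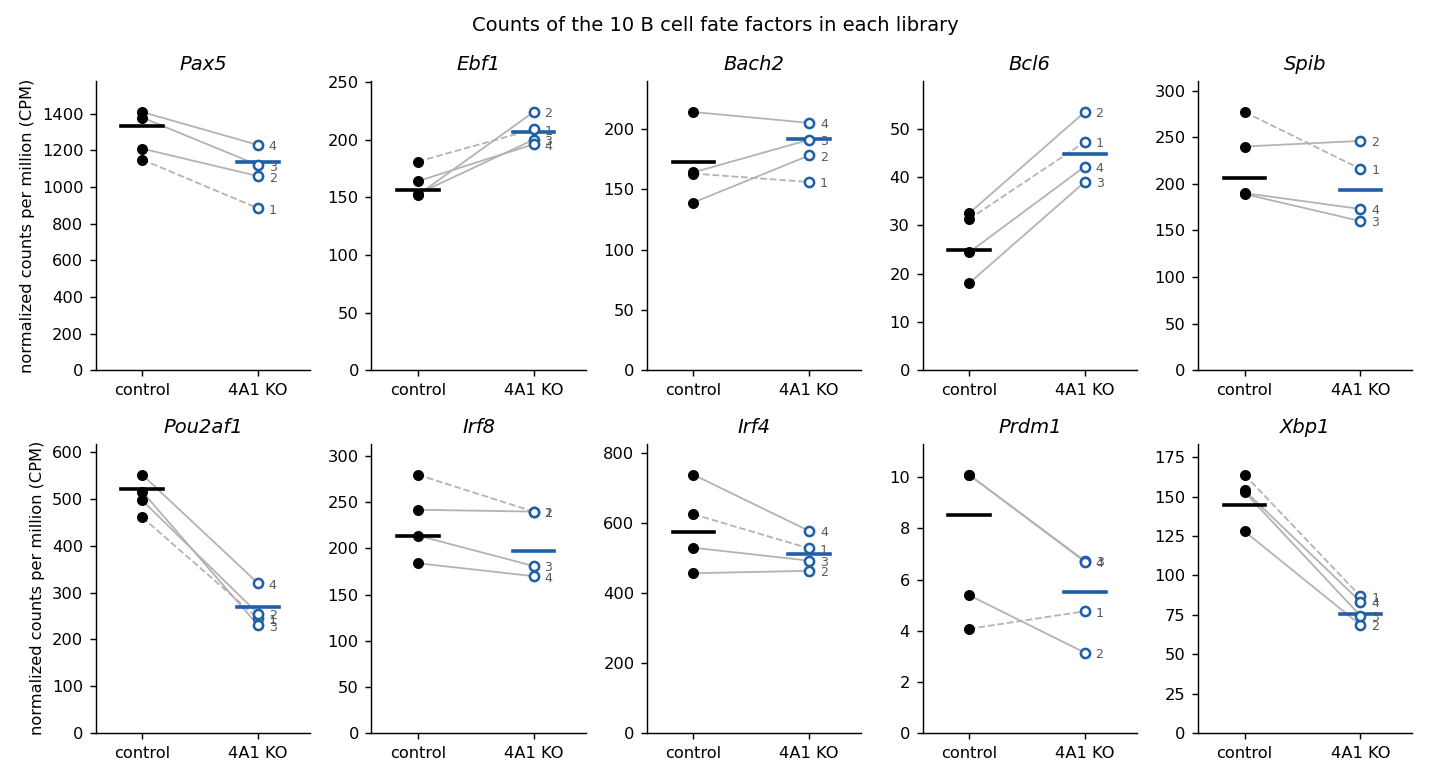
Normalised read counts (CPM) of each fate factor in the 4 control (black) and 4 4A1 KO (open blue) libraries, with lines joining libraries of the same replicate number (dashed for replicate 1) and bars at the mean of replicates 2 to 4. Pou2af1 and Xbp1 fell in each pair and Bcl6 rose in each, whereas the groups overlapped for Pax5, Bach2, Spib, Irf8, Irf4 and Prdm1.

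Pou2af1, whose product joins OCT1 and OCT2 on octamer promoters such as those of the immunoglobulin genes and is required for germinal centres, fell together with Xbp1 by more than the other members. It stood at 461, 497, 516 and 552 CPM in control libraries 1 to 4 and at 245, 255, 230 and 320 CPM in 4A1 KO libraries 1 to 4. Each 4A1 KO value was below the lowest control value. The log2 fold change was -0.97 ± 0.07 (SE, n = 3 pairs; edgeR adjusted p = 1.67e-05), a change of -49.0%. The mean TPM of the controls was 389 ± 31.7 and that of 4A1 KO cells 199 ± 37.4 (SD, n = 3 each).

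Xbp1, which drives expansion of the secretory pathway in plasma cells, also fell. Control libraries 1 to 4 held 164, 128, 153 and 154 CPM and 4A1 KO libraries 1 to 4 held 86.8, 68.6, 74.5 and 83.4 CPM. The groups were well apart, and the 4 within-pair differences were alike, from -0.88 to -1.04 on the log2 scale. The log2 fold change was -0.94 ± 0.05 (SE; edgeR adjusted p = 1.02e-05), a change of -48.0%. The gene lies at chr11:5470606-5483027 in GRCm39. For both Pou2af1 and Xbp1 the exact permutation test over the 8 libraries, on CPM and on TPM, gave p = 0.0286 (two-sided), the smallest that 4 against 4 can give.

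Bcl6, the repressor that establishes the germinal centre programme, was the only member called higher. Its control values were 31.3, 32.5, 18 and 24.4 CPM and its 4A1 KO values 47.3, 53.5, 39 and 42.2 CPM, again in the order of replicates 1 to 4. The lowest 4A1 KO library exceeded the highest control library. The log2 fold change was 0.87 ± 0.09 (SE; edgeR adjusted p = 5.84e-05), which is 1.83-fold, and the pairs ranged from 0.60 in replicate 1 to 1.11 in replicate 3. The exact permutation p over 8 libraries was again 0.0286.

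Prdm1, the gene for BLIMP-1, the repressor that ends the B cell programme in plasma cells, was the lowest of the 10 in both genotypes and the least certain of the 4 calls. Between 121 and 440 reads were counted per library. Control values were 4.07, 5.39, 10.1 and 10.1 CPM and 4A1 KO values 4.76, 3.14, 6.73 and 6.70 CPM. The controls of batch B lay above those of batch A, and the groups overlapped. Within pairs the log2 difference was 0.22 in replicate 1 and -0.78, -0.58 and -0.59 in replicates 2 to 4. The fit of replicates 2 to 4 gave a log2 fold change of -0.64 ± 0.11 (SE; edgeR adjusted p = 0.00114). This call rested on the pairing, since without the replicate block the log2 fold change was -0.62 with an edgeR adjusted p of 0.183. With all 8 libraries it was -0.45, inside the fold limit (edgeR adjusted p = 0.0238), and the exact permutation test over 8 libraries gave p = 0.314 on CPM.

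**Figure D2:**
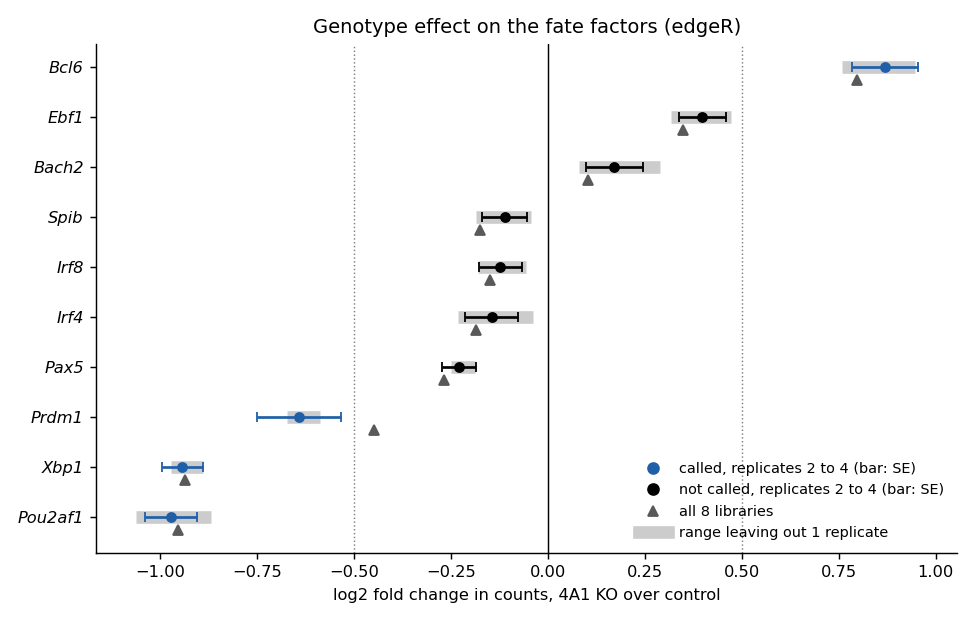
Log2 fold change of 4A1 KO over control for each fate factor, from the edgeR fit of replicates 2 to 4 (circles with standard errors, blue where called), from the fit of all 8 libraries (triangles) and over the fits that left out 1 of the 3 replicates (grey bars). Prdm1 is the only called member whose triangle lies inside the dotted limits at an absolute log2 fold change of 0.5.

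Pax5 and Ebf1, the factors that commit and hold cells in the B lineage, differed in opposite directions and by small amounts. Pax5 held 1150, 1210, 1380 and 1410 CPM in control libraries 1 to 4 and 884, 1060, 1120 and 1230 CPM in 4A1 KO libraries 1 to 4. It was lower in each of the 4 pairs although the groups overlapped, and the log2 fold change was -0.23 ± 0.04 (SE; edgeR adjusted p = 0.00229). Ebf1 held 181, 152, 153 and 164 CPM in control and 209, 224, 200 and 196 CPM in 4A1 KO. Its groups did not overlap, with a log2 fold change of 0.40 ± 0.06 (SE; edgeR adjusted p = 0.000669). Both lay inside the fold limit in each fit that was run.

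Bach2, Spib, Irf8 and Irf4 did not pass the test in replicates 2 to 4. Bach2, which delays BLIMP-1 in germinal centre and memory cells, ranged from 139 to 214 CPM in the 4 control and from 156 to 205 CPM in the 4 4A1 KO libraries (log2 fold change 0.17 ± 0.07, SE; edgeR adjusted p = 0.0794). The pairs were split, higher in 4A1 KO in replicates 2 and 3 and lower in replicates 1 and 4. Spib, an ETS factor of B cell receptor signaling, ranged from 189 to 277 CPM in control and from 160 to 246 CPM in 4A1 KO (log2 fold change -0.11 ± 0.06, SE; edgeR adjusted p = 0.14). Irf8, which acts with PU.1 and SPIB in germinal centre cells, ranged from 184 to 280 and from 170 to 240 CPM (log2 fold change -0.12 ± 0.06, SE; edgeR adjusted p = 0.0897). Irf4, induced by activation and required at a high dose for plasma cells, ranged from 457 to 739 CPM in control and from 464 to 578 CPM in 4A1 KO (log2 fold change -0.15 ± 0.07, SE; edgeR adjusted p = 0.101). Irf4 spread more among the controls than among the 4A1 KO libraries, and control replicate 4 held the highest value. With all 8 libraries Spib and Irf8 had edgeR adjusted p-values of 0.0292 and 0.0223, at log2 fold changes of -0.18 and -0.15 that stayed inside the fold limit. These 4 values moved with single replicates. Bach2 ranged from 0.08 without replicate 2 to 0.29 without replicate 4 (edgeR adjusted p = 0.476 and 0.000801), and Irf4 from -0.23 without replicate 2 to -0.04 without replicate 4 (edgeR adjusted p = 0.047 and 0.597). Spib and Irf8 stood at -0.19 and -0.18 without replicate 2 and at -0.04 and -0.06 without replicate 3. With upper quartile scaling Bach2 had a log2 fold change of 0.19 (edgeR adjusted p = 0.0499).

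The TPM, made by another program from the same alignments, called 3 of the 10, Bcl6, Pou2af1 and Xbp1, in a limma comparison that called 20.0% of 12976 genes. Their fold changes on the log2(TPM + 1) scale were 0.81, -0.98 and -0.97, close to those of the counts. Prdm1 had a log2(TPM + 1) fold change of -0.35 (limma adjusted p = 0.0107) at levels of 1.32 to 3.87 TPM. It was not called with a pseudocount of 0.1 (-0.47), with all 8 libraries (-0.14; limma adjusted p = 0.477) or without the replicate block (limma adjusted p = 0.358). In replicate 1 Prdm1 stood at 1.52 TPM in control and 2.52 TPM in 4A1 KO, and at 4.07 and 4.76 CPM, from raw counts of 163 and 150 in libraries of 39890141 and 31727557 reads.

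Since TPM is per transcript length, it also gives the order of the factors within a genotype. In control cells Pou2af1 (389 TPM) and Pax5 (359 TPM) stood at the top with overlapping ranges, followed by Irf4 (231 TPM). Xbp1 (153 TPM), Spib (147 TPM) and Irf8 (145 TPM) came next and did not separate from each other. Ebf1 (52.0 TPM), Bach2 (38.4 TPM), Bcl6 (13.4 TPM) and Prdm1 (3.17 TPM) followed, each with a range below that of the gene before it. In 4A1 KO cells Pax5 (296 TPM) was alone at the top. Pou2af1 (199 TPM) now overlapped Irf4 (204 TPM), and Xbp1 (77.8 TPM) had come down to the range of Ebf1 (67.3 TPM). Spib and Irf8 stood at 135 TPM each, Bach2 at 42.1 TPM, Bcl6 at 23.9 TPM and Prdm1 at 2.27 TPM. Among all genes tested in TPM, the percentile of Bcl6 was 41.6 in control and 55.4 in 4A1 KO, that of Xbp1 was 90.5 and 81.5, and that of Prdm1 was 16.4 and 12.2.

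**Figure D3:**
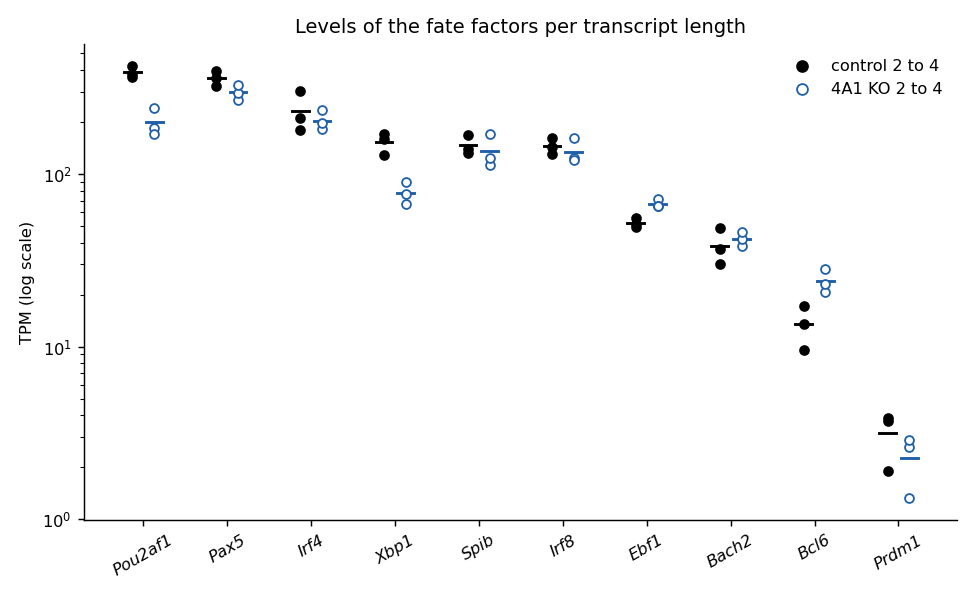
TPM of each fate factor on a log axis in replicates 2 to 4 of control (black) and 4A1 KO (open blue), ordered by the control mean, with bars at the means. The factors span from 389 TPM for Pou2af1 to 3.17 TPM for Prdm1 in control cells, and Pou2af1 and Xbp1 are the genes whose 4A1 KO points drop clear of the control points.

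The balance between opposing factors was read as the log2 ratio of their TPM within each library. For Irf4 to Irf8, whose ratio rises towards the plasma cell, the control ratios were 0.38, 0.15, 0.55 and 1.23 and the 4A1 KO ratios 0.34, 0.17, 0.67 and 0.97, with a difference of -0.04 (4A1 KO minus control; exact permutation p = 0.914). The ratios were alike within each pair and differed more between replicates than between genotypes. For Prdm1 to Bcl6, which repress each other, the control ratios were -3.39, -3.18, -1.36 and -1.80 and the 4A1 KO ratios -3.23, -4.40, -2.991 and -3.002. The difference was -0.97 (exact permutation p = 0.257), with pairs at 0.16 in replicate 1 and -1.23, -1.63 and -1.20 in replicates 2 to 4. Replicate 1 thus went against the other 3 pairs on TPM. As a ratio of CPM it did not, with pairs at -0.37 in replicate 1 and -1.50, -1.70 and -1.38 in replicates 2 to 4 (difference -1.24; exact permutation p = 0.143). The ratio of Prdm1 to Bach2 differed by -0.27 (exact permutation p = 0.429) and that of Prdm1 to Pax5 by 0.12 (exact permutation p = 0.886), with replicate 1 at 0.86 and 1.10 and the other pairs below 0. Over the 4 ratios none passed, with Benjamini-Hochberg adjusted exact permutation p-values from 0.857 to 0.914, and the 4 against 4 design cannot go below 0.0286 unadjusted.

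**Figure D4:**
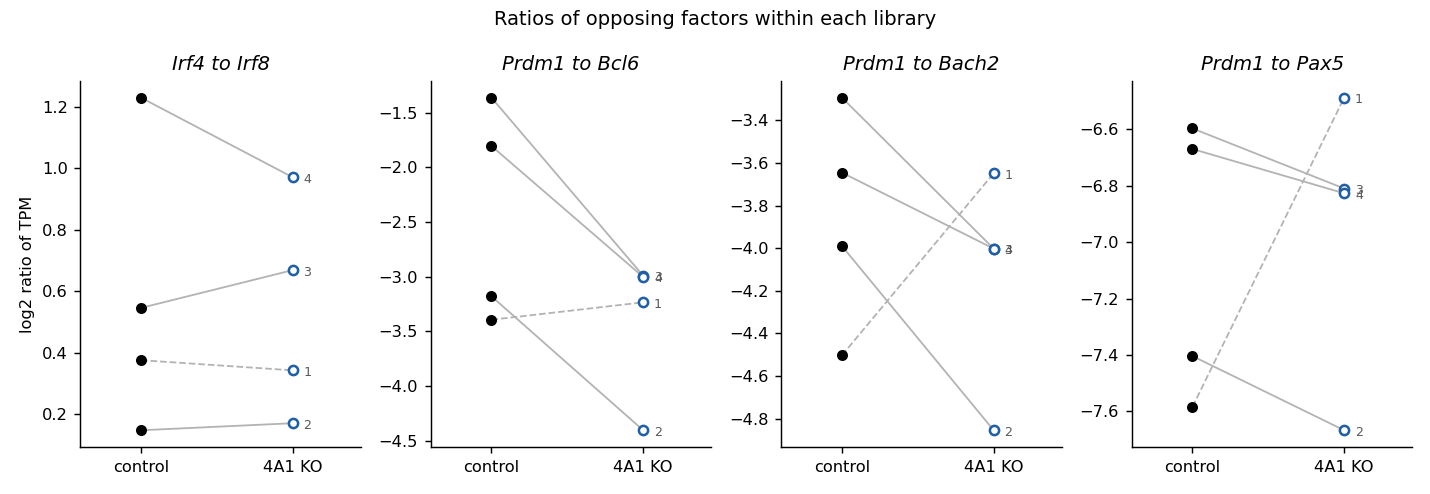
Log2 ratio of TPM of opposing factors in each control (black) and 4A1 KO (open blue) library, with lines joining the same replicate number (dashed for replicate 1) and a separate vertical axis for each ratio, none of which starts at 0. The 3 ratios with Prdm1 as numerator fall in replicates 2 to 4 and rise in replicate 1, and the Irf4 to Irf8 ratio differs mainly between replicates.

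Terms for the batch and sex named by the labels were read over the 8 libraries as well. Over the 8 libraries the batch term called 1 of the 10, beside 6.75% of all genes. This was Prdm1, higher in batch B by 0.94 on the log2 scale (edgeR adjusted p = 0.00203). Spib and Irf8 were lower in batch B by less than the fold limit (log2 differences -0.46 and -0.42; edgeR adjusted p = 0.000946 and 0.00053), as was Bcl6 (-0.45; edgeR adjusted p = 0.00415). Pax5 and Bach2 were higher in batch B, also inside the limit (0.26 and 0.28; edgeR adjusted p = 0.00246 and 0.0267). Pou2af1 and Xbp1 differed between batches by 0.14 and 0.06 (edgeR adjusted p = 0.12 and 0.631). The sex term called 0 of the 10, beside 2.43% of all genes. Interactions tested whether the genotype effect itself differed: with sex 0.00% of 14211 genes passed an edgeR adjusted p under 0.05 (405 at an unadjusted p under 0.05), and with batch 0.00704% (1 gene, not a fate factor, and 610 unadjusted). Among the fate factors Spib had the smallest unadjusted p in the sex interaction, 0.0267 with an edgeR adjusted p of 1.

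Genes that work around these factors were described in 6 lists, each by its counts, to be read beside the 11.6% of all genes called higher and 13.7% called lower. Among 16 other lineage factors of B cells, 0 were called higher and 4 lower, with a median log2 fold change of -0.12 beside 0.01 over all genes. Ikzf1, the gene for IKAROS, had mean CPM of 575 in control and 363 in 4A1 KO (log2 fold change -0.67 ± 0.05, SE), Bcl11a 184 and 114, and Id3, an inhibitor of E proteins, 20.7 and 12.7. Klf2, named after its values were seen, was the fourth. The octamer-binding partners of OBF-1 were not called, with log2 fold changes of -0.09 for Pou2f1 (OCT1) and 0.16 for Pou2f2 (OCT2). Among 11 other germinal centre and plasma cell factors, 0 were called higher and 4 lower, with a median log2 fold change of -0.33. These were Batf, an AP-1 factor that supports class switching (106 and 55.5 CPM; log2 fold change -0.91 ± 0.10, SE), Mef2b, which drives Bcl6 in germinal centre cells (26.5 and 15.1 CPM), Arid3a (71.8 and 48.5 CPM) and, named after its values were seen, Creb3l2. Without the replicate block the calls of Batf and Arid3a were lost (edgeR adjusted p = 0.0609 and 0.114).

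**Figure D5:**
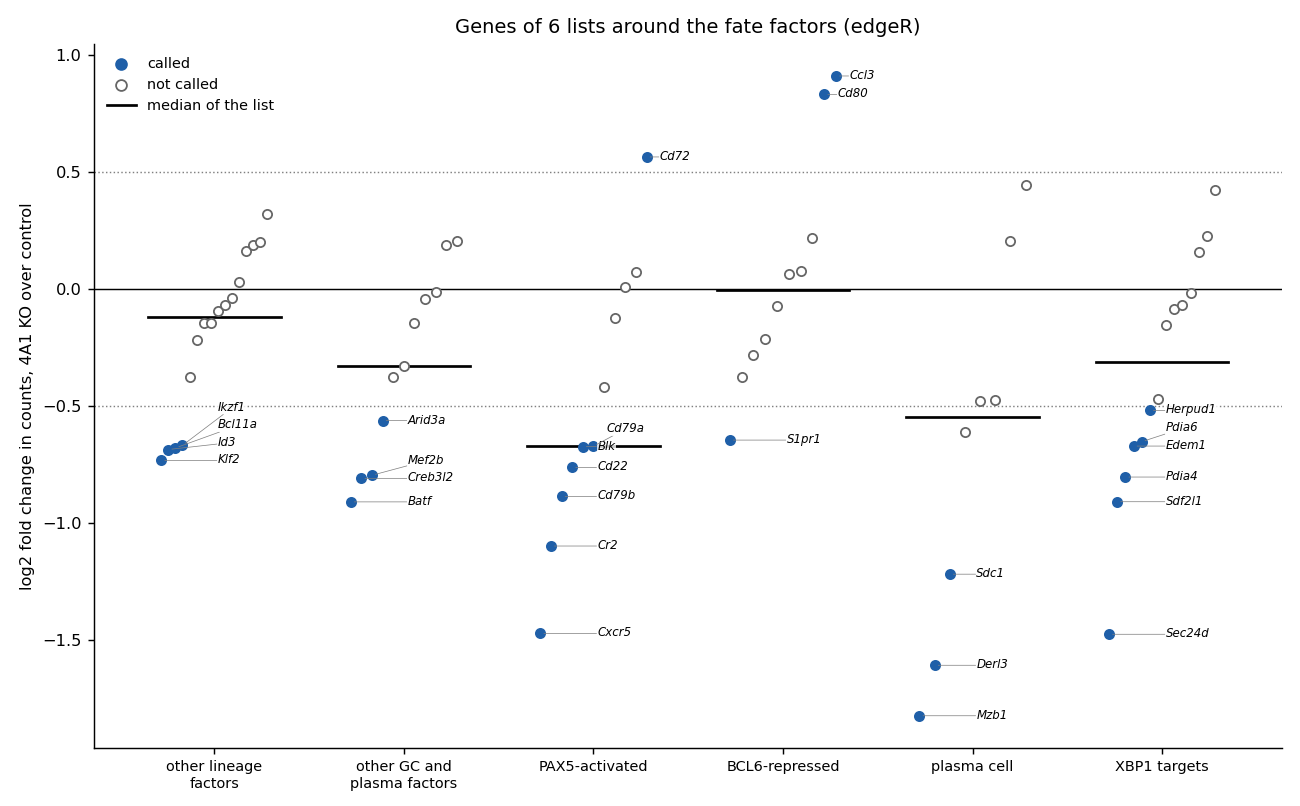
Log2 fold change of 4A1 KO over control (edgeR, replicates 2 to 4) for the genes tested in each of 6 lists, with called genes in blue and named, other genes as open circles, black bars at the list medians and dotted lines at an absolute log2 fold change of 0.5. Called genes lie below 0 in 5 of the lists apart from Cd72, and the list of genes repressed by BCL6 holds Cd80 and Ccl3 above and S1pr1 below.

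Downstream of PAX5, 1 of 11 genes that it activates was called higher and 6 lower, with a median log2 fold change of -0.67. The chemokine receptor gene Cxcr5 fell from 153 ± 21.1 to 55.6 ± 11.1 CPM (SD, n = 3 each), Cd79b, a signaling chain of the B cell receptor, from 493 ± 28.2 to 267 ± 23.2 CPM, and Cd22, an inhibitory co-receptor, from 290 ± 38.6 to 172 ± 35.1 CPM. Cd72, named after its values were seen, was the gene called higher (0.56). Ms4a1, whose product is a widely used B cell marker, stood at a log2 fold change of 0.07. The B cell marker sum given above moved with this list, since 3 of its markers are members of both.

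Downstream of BCL6, 2 of 10 genes that it represses were called higher and 1 lower, with a median log2 fold change of 0.00. Cd80, a costimulatory ligand, had mean CPM of 11.7 in control and 20.3 in 4A1 KO, the chemokine gene Ccl3 0.311 and 0.584 CPM from at most 26 reads in a library, and S1pr1, an egress receptor, 8.06 and 5.05 CPM. The call of Ccl3 was lost when any of the 3 replicates was left out (edgeR adjusted p from 0.0805 to 0.139) and that of S1pr1 without the replicate block (edgeR adjusted p = 0.135). Of the germinal centre genes, which are not counted as a list here, Fas, S1pr2, Mybl1 and Gna13 were not called, with log2 fold changes of -0.28, 0.11, -0.40 and 0.40.

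Among plasma cell genes, 0 were called higher and 3 lower of 8 tested, with a median log2 fold change of -0.54. Mzb1, an endoplasmic reticulum co-chaperone for antibody assembly, fell from 172 ± 3.29 to 49.9 ± 15.7 CPM (SD, n = 3 each; log2 fold change -1.82 ± 0.13, SE). Derl3, which acts in degradation of misfolded proteins, fell from 7.31 to 2.40 CPM, and Sdc1, the gene for the plasma cell marker CD138, from 11.3 to 4.93 CPM. Jchain, at 14.5 and 17.1 CPM, did not pass (log2 fold change 0.21; edgeR adjusted p = 0.692). Among 14 targets of XBP1, 0 were called higher and 6 lower, with a median log2 fold change of -0.31. Sdf2l1, a partner of endoplasmic reticulum chaperones, fell from 158 to 84.5 CPM (log2 fold change -0.91 ± 0.06, SE), and the disulfide isomerases Pdia4 and Pdia6 fell from 275 to 158 and from 538 to 342 CPM. Dnajb9, Hspa5 and Hyou1 stood at log2 fold changes of 0.42, -0.07 and -0.02 and were not called.

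The fate factors shared few features of their transcripts. By the canonical transcripts of GENCODE M39 their 5' UTRs, the regions on which EIF4A1 acts, ran from 18 nt (Spib) to 868 nt (Ebf1), and the GC content of these from 36.7% (Pax5) to 83.0% (Irf8), around medians of 232 nt and 65.0% over 11325 genes. The 3 genes lower in 4A1 KO had 5' UTRs of 102 nt with 49.0% GC (Pou2af1), 276 nt with 65.2% GC (Prdm1) and 341 nt with 65.4% GC (Xbp1), and Bcl6 had 328 nt with 61.9% GC. All 4 lay within the range of the members that were not called, but that range took in most genes. It ran from the 0.50 to the 95.2 percentile of length and from the 0.24 to the 98.5 percentile of GC content. It therefore cannot tell called from uncalled members. Which start sites these cells used was not measured.

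For Irf4, Prdm1 and Bach2, the genes whose CPM most resembled theirs across the 8 libraries were named as a description, since the libraries share genotype, batch and sex. Irf4 was closest to Aim2, a DNA sensor, and Vegfa, a growth factor (Pearson r = 0.95 and 0.94). Prdm1 was closest to Fbxo46 and the pseudogene Ptges3-ps (r = 0.97 for both), and Bach2 to Chd6 and Maskbp3 (r = 0.97 and 0.95). None of these 6 genes was called between genotypes.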

How the data were processed

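RNA of splenic B cells from 4 control and 4 4A1 KO mice was sequenced after 24 h of culture. The authors trimmed reads with Trim Galore 0.6.6, mapped them to GRCm39 with HISAT2 2.1.0 and deposited raw read counts per gene, made with Seqmonk over merged isoforms with strand taken into account, so that antisense genes are separated but genes overlapping on one strand (Pax5, Bach2, Bcl6 and Pou2af1 have such neighbours) may share reads. The deposited TPM are the authors' output of StringTie 2.1.1. No column of single samples was left unused. Replicates are separate mice.

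The counts were fitted with edgeR 4.0.16 in R 4.3.3 (filterByExpr, TMM, quasi-likelihood test, two-sided, Benjamini-Hochberg adjustment over all genes tested) on replicates 2 to 4, which the study compared, with batch, sex and genotype. In these 6 libraries batch and sex equal the replicate number as a block. That pairing comes from the batch and sex in the labels, and same-numbered libraries deviated together from their group means (correlations across genes from 0.33 to 0.49, mean of other pairs -0.20). For TPM, limma 3.58.1 was applied to log2(TPM + 1) of genes averaging 1 TPM or more, and single values and ratios were tested with exact permutation tests over 8 libraries. DESeq2 1.42.0, other scalings and filters, a fit without the block and leaving out replicates were alternatives. The edgeR fit was tested on simulated data. Library totals ran from 38488341 to 43210858 reads in the 6 libraries. This depth limits genes with few reads, such as Ccl3 (at most 26 in a library), S1pr2 (at most 53) and Prdm1 (121 to 440). Positions and transcript features come from GENCODE M39, to which 52647 of 53242 gene identifiers matched, and promoters from RefSeq.

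The fate factors and lists were chosen with earlier results of these data known. The genes named are the 10 factors, Eif4a1, the 3 called genes of each list with the smallest adjusted p, and the 2 most alike to Irf4, Prdm1 and Bach2 among genes averaging 10 CPM or more. Other list genes were named after their values were seen, as the batch and sex terms were read after values were known. Some list genes are not reported here. The proteomic data were not analysed here.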

Additional observations from a re-analysis of the deposited data

How the results depend on the processing

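Pou2af1, Xbp1 and Bcl6 were called under each alternative run on the counts and on the TPM. Prdm1 was not called in a test against the fold limit itself (edgeR glmTreat, adjusted p = 0.205), with all 8 libraries (log2 fold change -0.45) or without the replicate block, where 3000 genes and 3 fate factors were called in place of 3596 and 4. With the block left out the TPM still gave 3 fate factors, and the signs of the 4 pairs gave exact permutation p-values of 0.25 to 1 for the TPM ratios and 0.125, the smallest possible, for the CPM ratio of Prdm1 to Bcl6. The test against the fold limit called 1627 genes, and by its construction it asks for more. Leaving out 1 replicate gave between 3083 and 3821 genes and 4 fate factors in each case. The ratio of Irf4 to Irf8 ranged from -0.089 to 0.038, the positive value without replicate 4, the ratio of Prdm1 to Bcl6 from -1.351 to -0.754, and that of Prdm1 to Bach2 from -0.644 to -0.070. The ratio of Prdm1 to Pax5 ranged from -0.211 to 0.242. It turned to -0.165 as a ratio of CPM and to -0.211 in replicates 2 to 4, which is also the value without replicate 1. The log2 fold change of Vegfa ranged from -0.423 to 0.097, the positive value without replicate 4. The cause was not tested. Of the alternatives for the 10 fold changes, 117 kept the call and direction and 3 lost it, all for Prdm1. Among the other genes named, the call was lost in 15 pairs of gene and setting, such as Batf, Arid3a and S1pr1 without the block (adjusted p = 0.0609, 0.114 and 0.135, edgeR) and Ccl3 with DESeq2 (adjusted p = 0.299). At 121 to 440 reads, Prdm1 was the fate factor most limited by depth.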
